A study of Mus musculus with 12 samples.

Results

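The genes examined here are Pou5f1, Sox2, Nanog, Sall4, Lin28a, Lin28b and Trim71, which encode core pluripotency transcription factors and the LIN28 and TRIM71 RNA regulators of embryonic stem (ES) cells. They were chosen by name, and all 7 were found by Ensembl identifier among the 36521 genes of both deposited gene tables. They were read in V6.5 mouse ES cells in 3 groups of 4 poly(A) RNA libraries: parental cells with no knockdown, Tet1kd cells carrying pSUPER-puro-Tet1shRNA, and Tet2kd cells carrying pSUPER-puro-Tet2shRNA. All groups grew in medium with serum and LIF. The knockdown cells were electroporated, selected in puromycin on SNL76/7-4 feeder cells and picked as individual clones, and the number of clones behind the 4 libraries of a group is not stated in the labels. No group carried an empty vector or a control hairpin, so the vector, the selection and the cloning cannot be told apart from the loss of the TET protein.

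Both comparisons use the same parental libraries. The gene tables give the mean of 4 libraries, and whole reads per library were recovered from those means for the 7 genes in every library. A normalized count here is the recovered reads divided by a size factor on 1 scale for all 12 libraries. It is not divided by gene length, so levels are compared between groups and not between genes. The libraries carry letters by size factor: a and b are the deeper and c and d the shallower libraries of a group, and no label is tied to a letter. Recovered reads per library ran from 14.6 to 31.6 M in parental, from 14.3 to 35.8 M in Tet1kd and from 13.0 to 28.1 M in Tet2kd cells, and they cover at least 90.1% of the normalized counts of each group. Libraries of a group differed by more than sampling noise, with a chi-square per degree of freedom of 2.35 to 6.76 within a depth class and of 9.29 to 17.9 across. In the authors' deposited tables Tet1 stood at 25.2% of its parental mean in Tet1kd cells and Tet2 at 50.9% in Tet2kd cells. The other TET genes rose in Tet1kd cells, Tet3 to 177.2% (adjusted p = 6.45e-09) and Tet2 to 117.8% (adjusted p = 0.0186), and in Tet2kd cells Tet1 stood at 116.5% (adjusted p = 0.104) and Tet3 at 105.1% (adjusted p = 0.976) in the authors' deposited tables. Of 8 ES cell markers, 7 were in the tables and had reads in every group. The 4 with reads recovered in all libraries summed to 22937 to 25282 normalized counts in parental, 31212 to 37444 in Tet1kd and 24299 to 28809 in Tet2kd libraries. Of the 7, Klf4, Tdgf1 and Utf1 rose in Tet1kd cells, by 1.2, 0.92 and 0.74 on the log2 scale. Fbxo15 fell there by 0.96, and the other 3 had no call in the authors' deposited table. In Tet2kd cells only Fbxo15 was called, with a rise of 0.26. All of the 7 but Dppa5a are also among the OCT4 and SOX2 target genes below. Markers of feeder fibroblasts were present as well: the 12 genes summed to 5065 to 5496 normalized counts in the parental libraries, to 3006 to 3293 in Tet1kd and to 6357 to 6799 in Tet2kd, with none of the 12 at 0 in any group. In Tet1kd cells 11 of the 12 fell and none rose, and in Tet2kd cells 4 rose and 1 fell, in the authors' deposited tables. These counts and those of the ES cell markers stand beside 15.3% of all genes lower and 15.2% higher in Tet1kd cells. In Tet2kd cells 3.29% of all genes were lower and 3.85% higher. Sums of 5 trophectoderm markers were 503 to 520 in parental, 873 to 934 in Tet1kd and 410 to 457 in Tet2kd libraries. In Tet1kd cells Eomes and Krt7 of these 5 rose, by 0.79 and 1.53 on the log2 scale, while Cdx2 fell by 2.61 (adjusted p = 6.94e-08 in the authors' deposited table), and the median over the 5 was -0.91. Sums of 6 primitive endoderm markers were 394 to 472, 221 to 282 and 211 to 279, and those of 4 neuroectoderm markers 1494 to 1726, 888 to 963 and 1396 to 1616. The part of these cell types in the results below was not tested. In such bulk RNA, fewer cells of a type and less RNA per cell cannot be told apart.

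OCT4 (from Pou5f1) and SOX2 bind DNA together at a composite element and, with NANOG, form the regulatory circuit that holds ES cells pluripotent, while SALL4 is a zinc finger factor that works with them and with the NuRD complex. LIN28A and LIN28B bind precursors of the let-7 microRNAs and keep them from being processed. Mature let-7 in turn represses Lin28a, Lin28b and Trim71 through sites in their 3′ untranslated regions (UTRs). TRIM71 (LIN41) is an RNA-binding TRIM-NHL protein that represses mRNAs of differentiation and cell cycle genes. Mouse processed pseudogenes of Nanog and Pou5f1 exist, Sox2 lies within the noncoding gene Sox2ot, and how reads with more than 1 match were counted is not stated.

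The sequences below show the pairing on which the LIN28 and let-7 loop rests. All 9 names of the let-7 and miR-98 family in the RefSeq table (build GRCm38.p6) share the seed GAGGUAG, bases 2 to 8, which is in capitals in 3 of them.
mmu-let-7a-5p: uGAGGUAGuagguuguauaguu
mmu-let-7g-5p: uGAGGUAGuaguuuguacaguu
mmu-miR-98-5p: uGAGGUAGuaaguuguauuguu
The hairpin of Mirlet7g (RefSeq, GRCm38.p6, chr9:106178840-106178927, + strand) holds in its loop region the letters GGAG, the kind of element LIN28 proteins are known to bind, here in capitals.
Mirlet7g hairpin: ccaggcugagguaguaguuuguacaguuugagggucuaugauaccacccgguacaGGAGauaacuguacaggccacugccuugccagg
In the longest annotated 3′ UTR of each gene (GENCODE M21 transcripts), the letters CTACCTC, complementary to the seed, were searched on the transcript strand. Of the 7 genes, Trim71 and Lin28b held 4 matches each, Lin28a 2 and Sall4 1, while Pou5f1, Sox2 and Nanog held none. Among 20998 genes with an annotated 3′ UTR, 1880 (8.95%) held at least 1 match and 12 held 4 or more, in UTRs of unequal length. All 4 matches in Trim71, both in Lin28a, the match in Sall4 and 1 of 4 in Lin28b were followed by an A. Windows of 26 bases around some of them are printed with the match in capitals.
Trim71 match at base 166 of 5512: aacattgcctaagtcCTACCTCagct
Trim71 match at base 3617 of 5512: ttggcaaaaagttgtCTACCTCacgt
Lin28a match at base 909 of 2775: gcacagcctgttgaaCTACCTCattt
Lin28a match at base 1547 of 2775: gagatcgccacaaacCTACCTCactg
Lin28b match at base 36 of 4445: acccgggcgggaagtCTACCTCatgc
Lin28b match at base 2582 of 4445: gtttacagcacatggCTACCTCccag
Sall4 match at base 1082 of 1697: agggctttaatttatCTACCTCaatt
A match is a description of the letters; no let-7 binding was measured.

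**Figure D1:**
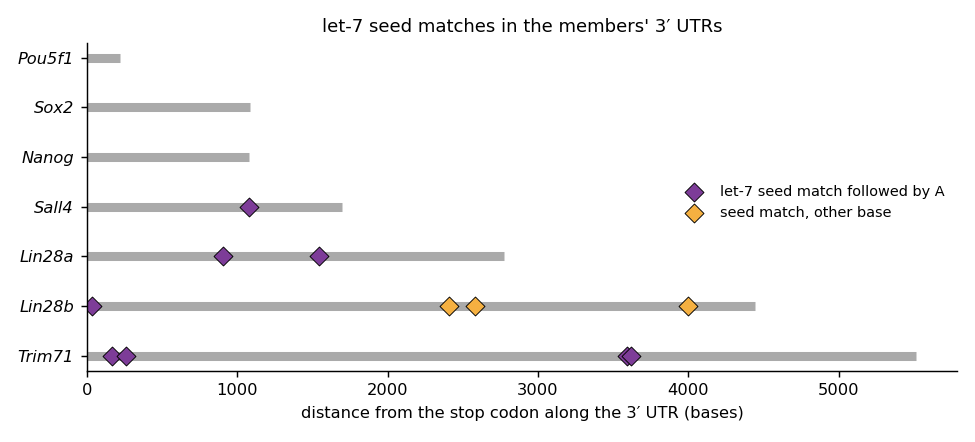
Positions of the let-7 seed match in the longest annotated 3′ UTR of each gene: the x axis is the distance from the stop codon in bases, grey bars are the UTRs, purple diamonds are matches followed by an A and orange diamonds are other matches. Trim71 and Lin28b hold 4 matches each, Lin28a 2 and Sall4 1, and the other genes hold none.

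Promoters of 6 of the 7 genes are in the RefSeq table (250 bases before to 50 after a start site, GRCm38.p6), and that of Sall4 was matched by none. The OCT4-SOX2 composite element, searched on both strands as TTTGCAT, any base and then ACAATG, occurred in 2 of 32851 promoter windows, and both are Nanog windows that overlap each other. It starts at position -151 of the window printed here (chr6:122707315-122707614, + strand), where it is in capitals.
Nanog: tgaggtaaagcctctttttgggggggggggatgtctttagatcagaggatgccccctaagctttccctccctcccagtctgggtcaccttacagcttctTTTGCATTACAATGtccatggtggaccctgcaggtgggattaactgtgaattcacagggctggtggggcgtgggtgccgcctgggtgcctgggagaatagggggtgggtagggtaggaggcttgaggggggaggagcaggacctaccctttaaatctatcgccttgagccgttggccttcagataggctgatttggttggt
The OCT4 core ATGCAAA (either strand) occurred in 4.63% of all windows; outside the composite element of Nanog, it was found in the Sox2 window. The SOX core ACAATG (either strand) occurred in 12.6% of all windows, among them those of Lin28a and of a second, downstream Pou5f1 start. TET proteins oxidise methylated cytosine, which lies mostly in CG pairs, and the promoters of the pair of genes that were lowest in Tet1kd cells relative to parental are printed with each CG in capitals. The Trim71 window (chr9:114564320-114564619, - strand) holds 19 CG pairs and the Lin28a window (chr4:134018767-134019066, - strand) 10, against 27 in Sox2 (chr3:34649745-34650044, + strand), 11 in Pou5f1 (upstream start), 8 in Lin28b, 4 in Nanog and a median of 7 over all windows.
Trim71: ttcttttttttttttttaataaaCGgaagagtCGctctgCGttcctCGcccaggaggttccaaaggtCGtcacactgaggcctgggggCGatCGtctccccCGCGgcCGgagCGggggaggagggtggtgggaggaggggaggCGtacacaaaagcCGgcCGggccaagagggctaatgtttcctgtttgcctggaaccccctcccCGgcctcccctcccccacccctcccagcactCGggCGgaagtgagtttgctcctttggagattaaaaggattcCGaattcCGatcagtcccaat
Lin28a: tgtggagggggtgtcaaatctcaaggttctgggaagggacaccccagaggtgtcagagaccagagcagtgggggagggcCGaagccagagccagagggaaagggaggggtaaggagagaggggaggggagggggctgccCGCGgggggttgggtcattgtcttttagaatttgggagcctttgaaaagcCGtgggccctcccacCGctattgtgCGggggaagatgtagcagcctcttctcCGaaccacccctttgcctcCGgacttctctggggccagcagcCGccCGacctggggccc
Methylation was not measured in the files used here.

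The first comparison asked how these genes stand when Tet1 is depleted. Trim71, Lin28a and Sall4 fell and Sox2 and Nanog rose, while Pou5f1 and Lin28b did not pass the first of the authors' deposited tests. In all, 5 of the 7 changed at an adjusted p of 0.05 by the first test in the authors' deposited table, 2 upward and 3 downward, where 30.4% of 23120 genes tested changed (15.2% upward and 15.3% downward). The median log2 fold change of the 7 was -0.04, beside -0.02 over the genes tested with a finite fold change. The authors' second deposited test called 6 of the 7, adding Pou5f1 (adjusted p = 0.0483), beside 39.2% of all genes. With limma on the recovered reads the 5 genes were called again, beside 55.1% of 14926 genes.

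Among the transcription factors, Sox2 stood at 9767, 9668, 9892 and 9556 normalized counts in parental libraries a to d and at 11804, 11994, 11767 and 11933 in those of Tet1kd. Every Tet1kd library lay above every parental library, and the spread within a group was small, at 9721 ± 143 and 11874 ± 107 (SD, n = 4 each). The authors' deposited table gives Sox2 a log2 fold change of 0.29 (adjusted p = 0.00249). Nanog, the homeodomain factor of the circuit, stood at 17260, 16959, 14462 and 14187 in parental and at 21972, 21653, 18065 and 17738 in Tet1kd libraries. The groups did not overlap, although the shallower Tet1kd libraries came close to the deeper parental ones. The authors' deposited table gives Nanog a log2 fold change of 0.33 (adjusted p = 0.0214), the call nearest to the threshold among the 5, and it is lost at an adjusted p of 0.01. Pou5f1, the POU factor whose dose sets ES cell fate, stood at 13523, 11971, 14224 and 14796 in parental and at 13809, 14103, 15760 and 15181 in Tet1kd libraries. These groups overlapped, and its log2 fold change was 0.11 (adjusted p = 0.351 in the authors' deposited table). Sall4 went the other way, from 13785, 14096, 14940 and 15346 in parental to 10473, 10936, 11234 and 11829 in Tet1kd libraries. All Tet1kd libraries were below all parental ones, and the authors' deposited table gives a log2 fold change of -0.39 (adjusted p = 1.56e-05).

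Lin28a, the cytoplasmic LIN28 paralog, stood at 10637, 10506, 9699 and 9956 normalized counts in parental libraries and at 6725, 6832, 6114 and 6393 in Tet1kd libraries. The Tet1kd mean was 63.7% of the parental one, and no libraries of the groups came near each other. The authors' deposited table gives a log2 fold change of -0.65 (adjusted p = 8.52e-14), a size above that of 90.5% of 1079 genes within a factor of 2 of its level. Lin28b, the paralog with the same RNA-binding domains, stood at 1274, 1115, 1009 and 1072 in parental and at 1119, 1210, 1034 and 986 in Tet1kd libraries. Its groups overlapped throughout, with a log2 fold change of -0.04 (adjusted p = 0.849 in the authors' deposited table). By limma the 95% interval of that difference ran from -0.24 to 0.16, which leaves out a change of the size seen in Lin28a. Trim71 had the greatest change of the 7. It stood at 3794, 3770, 4285 and 4263 in parental and at 1968, 1986, 2236 and 2267 in Tet1kd libraries, so that every Tet1kd library was far below every parental one. Its mean was 52.4% of the parental one, and its log2 fold change -0.93 (adjusted p = 4.61e-25 in the authors' deposited table), larger than in 97.2% of 3012 genes of like level.

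**Figure D2:**
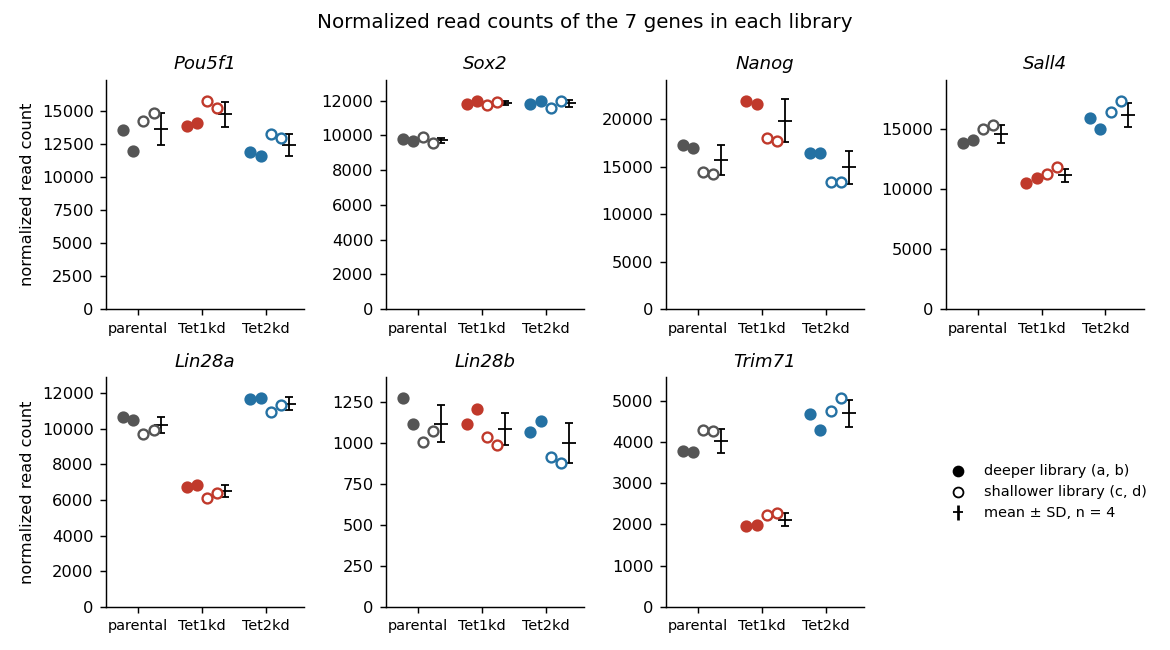
Normalized read count (y axis, from 0) of each gene in the 4 libraries of parental, Tet1kd and Tet2kd cells (x axis): filled points are the deeper libraries a and b, open points the shallower libraries c and d, and bars give the mean ± SD. Lin28a (6114 to 6832) and Trim71 (1968 to 2267) are lowest in all Tet1kd libraries, Sox2 is higher in all libraries of both knockdowns than in parental, and Nanog is lower in the shallower libraries of every group.

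The second comparison asked the same when Tet2 is depleted. Sox2 rose, by nearly the same amount as in Tet1kd cells, and the other 6 genes did not pass the deposited test. Thus 1 of the 7 changed in the authors' deposited table, where 7.14% of 22949 genes changed (3.85% upward and 3.29% downward). The members' median log2 fold change was 0.15, beside 0.00 over the genes tested with a finite fold change. The authors' second deposited test called 6 of the 7, all but Lin28b, beside 18.2% of all genes. With limma 3 of the 7 were called, namely Sox2, Lin28a and Trim71, beside 19.9% of 14926 genes.

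Sox2 stood at 11790, 11998, 11598 and 12005 normalized counts in the Tet2kd libraries, all above the highest parental library at 9892. The authors' deposited table gives it a log2 fold change of 0.28 (adjusted p = 0.00802). Nanog stood at 16429, 16473, 13382 and 13418 in Tet2kd libraries, inside or just below the parental range, and the authors' deposited table gives a log2 fold change of -0.08 (adjusted p = 0.920). Pou5f1 stood at 11889, 11578, 13253 and 12942, overlapping the parental libraries, with a log2 fold change of -0.14 (adjusted p = 0.465 in the authors' deposited table). Sall4 stood at 15918, 14969, 16366 and 17335. Its lowest Tet2kd library was below the highest parental one, and the authors' deposited table gives a log2 fold change of 0.15 (adjusted p = 0.298).

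Among the RNA regulators, Lin28a stood at 11656, 11709, 10923 and 11336 normalized counts in the Tet2kd libraries, all above the highest parental library at 10637. The authors' deposited table gives Lin28a a log2 fold change of 0.16 (adjusted p = 0.297). Trim71 stood at 4677, 4289, 4747 and 5061, of which the lowest was just above the highest parental library at 4285, with a log2 fold change of 0.22 (adjusted p = 0.0616 in the authors' deposited table). Lin28b stood at 1069, 1138, 914 and 880, overlapping the parental libraries, with a log2 fold change of -0.16 (adjusted p = 0.598 in the authors' deposited table). The Tet2kd and parental libraries did not overlap in 3 of the 7 genes (Sox2, Lin28a and Trim71), against 23.5% of genes with a mean of at least 10. For Tet1kd this held in 5 of the 7, against 49.1%.

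The knockdowns were then compared with each other by limma on log2(normalized count + 0.5), over the 14926 genes whose mean reached 10. Nanog and Pou5f1 were higher and Sall4, Lin28a and Trim71 lower in Tet1kd than in Tet2kd cells, so that 5 of the 7 differed, where 51.2% of all genes did. Trim71 had 2114 ± 159 normalized counts in Tet1kd and 4693 ± 317 in Tet2kd cells (SD, n = 4 each), a log2 difference of -1.15 ± 0.067 (SE; limma adjusted p = 2.41e-09). Lin28a had 6516 ± 327 and 11406 ± 362, a log2 difference of -0.81 ± 0.046 (SE; limma adjusted p = 1.68e-09). Sall4 differed by -0.54 ± 0.052 (SE; limma adjusted p = 5.54e-07). Nanog differed by 0.41 ± 0.093 and Pou5f1 by 0.25 ± 0.066 on the log2 scale (SE; limma adjusted p = 0.00176 and 0.00566). In each of these 5 genes no Tet1kd library lay within the range of the Tet2kd libraries, which held for 45.0% of genes with a mean of at least 10.

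Sox2 and Lin28b were not called between the knockdowns. Sox2 had 11874 ± 107 and 11848 ± 194 normalized counts (SD, n = 4 each), and the 95% interval of the log2 difference ran from -0.06 to 0.07. For Lin28b it ran from -0.08 to 0.33 around 0.12 (limma adjusted p = 0.295). Ordered by mean, Lin28a, Trim71 and Sall4 ran from Tet1kd through parental to Tet2kd. In these 3 genes the step from parental to Tet2kd was not past the threshold of the first deposited test but passed the second. Nanog and Pou5f1 ran in the reverse order, again with no call between parental and Tet2kd in the first deposited test. For both genes that step passed the second test in the authors' deposited table (adjusted p = 0.023 for Nanog and 0.0224 for Pou5f1).

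**Figure D3:**
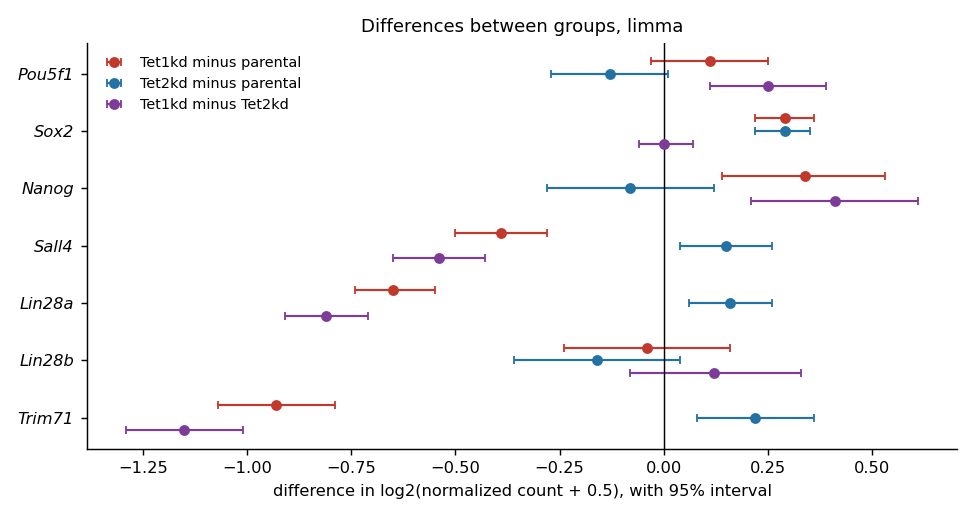
Difference in log2(normalized count + 0.5) between groups (x axis) for each gene (rows), with 95% intervals from limma: red is Tet1kd minus parental, blue Tet2kd minus parental and purple Tet1kd minus Tet2kd. Trim71, Lin28a and Sall4 lie to the left of 0 in red and purple, at -0.93, -0.65 and -0.39 in red, and Sox2 lies at 0.29 in both comparisons with parental.

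The spread within groups had a common pattern. In every group the shallower libraries had less Nanog than the deeper ones, at 0.815 to 0.837 of their level, and less Lin28b, at 0.813 to 0.871. They had more Pou5f1 (1.11 to 1.14 of the deeper level), Trim71 (1.09 to 1.14) and Sall4 (1.08 to 1.09), whereas Sox2 stood at 0.992 to 1.00. Within the deeper libraries alone the Tet1kd log2 difference from parental was 0.35 in Nanog, -0.64 in Lin28a, -0.94 in Trim71 and 0.13 in Pou5f1. Within the shallower ones it was 0.32, -0.65, -0.92 and 0.09. The Tet2kd differences kept their direction in both classes for all 7 genes. They were -0.06 and -0.10 in Nanog, -0.12 and -0.15 in Pou5f1, 0.24 and 0.20 in Trim71, and 0.14 and 0.18 in Lin28a, in the deeper and shallower libraries. In Pou5f1, Nanog and Sall4, Tet2kd and parental libraries overlapped over both classes but not within either class. The same held for Tet1kd and parental libraries in Pou5f1. How many of all genes were separate within both classes, or kept their direction in both, was not counted. With only 2 libraries per group and depth class, separation is easily reached, so these counts are not read as a result about the 7 genes. With a limma term for the depth class, chosen after seeing the data, all 7 genes were called in Tet2kd cells, against 36.5% of all genes, 6 in Tet1kd cells (all but Lin28b, against 65.2%) and 6 between the knockdowns (all but Sox2, against 62.6%).

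Ratios of reads of a pair of genes within a library do not depend on the size factor. The ratio of Trim71 to Sall4 reads was 0.277 ± 0.008 in parental, 0.190 ± 0.0073 in Tet1kd and 0.291 ± 0.0031 in Tet2kd libraries (SD, n = 4 each), with no overlap between Tet1kd and the others. The ratio of Lin28a to Lin28b reads was 8.35 to 9.61 in parental, 5.65 to 6.49 in Tet1kd and 10.3 to 12.9 in Tet2kd libraries, and the 3 ranges do not overlap. Sall4 over Pou5f1 was likewise separate, at 1.02 to 1.18, 0.713 to 0.779 and 1.23 to 1.34. Nanog over Pou5f1, by contrast, ran from 0.959 to 1.42 in parental, from 1.15 to 1.59 in Tet1kd and from 1.01 to 1.42 in Tet2kd libraries, so the groups overlapped over both depth classes. Within a class every Tet1kd library was above every parental one, at 1.59 and 1.54 against 1.28 and 1.42 in the deeper and at 1.15 and 1.17 against 1.02 and 0.959 in the shallower libraries. Trim71 over Lin28a overlapped too, at 0.357 to 0.442 in parental, 0.291 to 0.366 in Tet1kd and 0.366 to 0.446 in Tet2kd libraries. Sox2 over Pou5f1 overlapped between parental (0.646 to 0.808) and Tet1kd libraries (0.747 to 0.855), with Tet2kd above both at 0.875 to 1.04. How many pairs among all genes were separate was not counted.

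**Figure D4:**
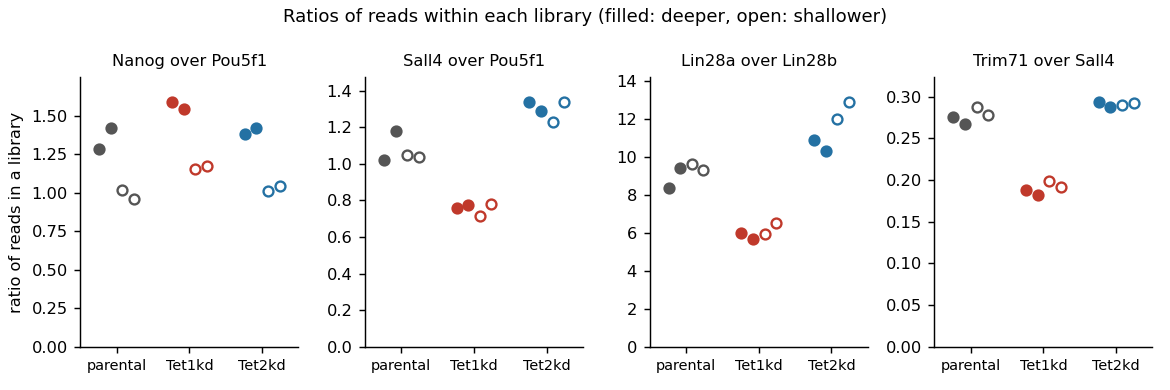
Ratios of reads of 2 genes within a library (y axes, from 0) in the 4 libraries of each group (x axes), filled points for the deeper and open points for the shallower libraries. Trim71 over Sall4 is 0.182 to 0.199 in Tet1kd and at least 0.267 elsewhere, while Nanog over Pou5f1 follows the depth class in every group.

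The genes around the LIN28 axis were read from lists, where each rise or fall is given as a log2 fold change and each call is that of the first deposited test. These counts stand beside 15.2% of all genes higher and 15.3% lower in Tet1kd and 3.85% higher and 3.29% lower in Tet2kd cells. Among the 9860 genes with an annotated 3′ UTR and a mean of at least 100 in the Tet1kd table, 26.5% were higher and 24.3% lower. The lists share genes, so their counts are not independent. Ago2 is both a let-7 processing gene and a TRIM71 target, and Dicer1 both a processing gene and a let-7 target. Esrrb and Nr0b1 are both OCT4 and SOX2 targets and protein partners. The 17 measured genes of the first list process, load or degrade let-7 and its precursors, or affect these steps. They do not all act on let-7 in the same direction. Of these 17, 6 rose and 3 fell in Tet1kd cells in the authors' deposited table (median log2 fold change of 0.16), beside 15.2% and 15.3% of all genes. The uridylyl transferase Zcchc11 (Tut4), which tails precursors bound by LIN28A, had a log2 fold change of 0.48 (adjusted p = 4.55e-07), the RNA-binding protein gene Msi1 one of 0.63 (adjusted p = 1.98e-09) and Ago3, an Argonaute, one of 0.39 (adjusted p = 0.00128) in the authors' deposited table. Dicer1, which cuts the precursor hairpin, fell by 0.38 on the log2 scale (adjusted p = 7.41e-05 in the authors' deposited table). In Tet2kd cells Msi1 rose by 0.75 (adjusted p = 2.9e-09), and the other 16 genes did not pass the first test in the authors' deposited table. The second test called 6 of the 17 there and limma 4. Of 10 let-7 precursor genes in the tables, 5 had no reads in any group. The most abundant, Mirlet7d, had 80 reads over the 4 parental, 86 over the 4 Tet1kd and 113 over the 4 Tet2kd libraries. Mirlet7a-1, named here after its values were seen, had 20, 1 and 4 reads, and passed the deposited test in Tet1kd cells (adjusted p = 0.0247). Poly(A) libraries of this kind do not measure mature microRNAs, and levels of mature let-7 were not analysed here.

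The list of targets that let-7 is known to repress had a negative median log2 fold change in Tet1kd cells. Whether this is tied to the lower Trim71 and Lin28a there was not tested, and the list was chosen with earlier results of these data known. Of 27 measured target genes other than the 7, 14 fell and 5 rose in the authors' deposited table, leaving 8 with no call (all genes 15.3% lower and 15.2% higher), with a median log2 fold change of -0.33 over the 26 with a finite fold change. Prtg, encoding the receptor protogenin of the early embryo, fell from 1430 to 185 in the deposited means, a log2 fold change of -2.95 (adjusted p = 7.82e-149 in the authors' deposited table). The proto-oncogene Myc fell by 2.61 on the log2 scale (adjusted p = 7.98e-124) and the orphan nuclear receptor gene Nr6a1 by 1.18 (adjusted p = 9.39e-36), while the insulin receptor gene Insr rose by 1.18 (adjusted p = 2.1e-31), all in the authors' deposited table. In Tet2kd cells 3 of the 27 rose and 2 fell (median 0.05). Igf2bp3, an RNA-binding protein gene, rose by 0.52 (adjusted p = 5.51e-08), Mycn by 0.38 (adjusted p = 0.000158) and Igf2bp2 by 0.25 (adjusted p = 0.0386) in the authors' deposited table, where Myc fell by 0.29 (adjusted p = 0.014). Over all genes the seed match was read without the list. Of 1090 genes with a match, an annotated UTR and a mean of at least 100, 29.7% rose and 25% fell in Tet1kd cells (median log2 fold change 0.02), and of 8770 without a match 26.1% rose and 24.2% fell (median 0.01). UTRs with a match had a median length of 2384 bases and those without one of 1109. Of 137 genes with 2 or more matches, 29.2% rose and 28.5% fell (median -0.03). Among the 10 genes with 4 or more matches, Trim71 and Lin28b included, 6 fell and 2 rose in Tet1kd cells. Trim71 is itself among those that fell, and 24.3% of the 9860 genes with a UTR fell and 26.5% rose. In Tet2kd cells none of 9 such genes was called by the first deposited test, where 7.01% of 9707 genes with a UTR rose and 5.94% fell. Of the 9 genes, 2 had an unadjusted p under 0.05 and the second test called 2.

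Of 7 mRNAs known to be repressed by TRIM71, 4 rose and 1 fell in Tet1kd cells in the authors' deposited table (median log2 fold change of 0.28), beside 15.2% and 15.3% of all genes. Ago2, already counted among the let-7 processing genes that rose, is 1 of the 4. Egr1, an immediate-early transcription factor, rose by 2.70 (adjusted p = 9.86e-210), the plexin gene Plxnb2 by 0.52 (adjusted p = 3.23e-05) and the pocket protein gene Rbl1 by 0.40 (adjusted p = 0.000498), whereas the CDK inhibitor gene Cdkn1a fell by 0.32 (adjusted p = 0.00291), in the authors' deposited table. In Tet2kd cells 1 rose and 2 fell. Egr1 rose by 0.71 (adjusted p = 5.75e-15), Rbl2 fell by 0.38 (adjusted p = 0.0414) and Mbnl1 by 0.31 (adjusted p = 0.0365) in the authors' deposited table.

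Known target genes of OCT4 and SOX2 were split. Of 15, 6 rose and 6 fell in Tet1kd cells in the authors' deposited table, with a median log2 fold change of -0.01, where 30.4% of all genes were called. Among the 9860 genes with an annotated 3′ UTR and a mean of at least 100, 26.5% were higher and 24.3% lower. Klf4, itself a pluripotency factor, rose by 1.2 (adjusted p = 1.9e-25), the Nodal inhibitor gene Lefty1 by 1.09 (adjusted p = 1.84e-28) and the Nodal coreceptor gene Tdgf1 by 0.92 (adjusted p = 5.6e-20), while Fbxo15 fell by 0.96 (adjusted p = 5.88e-28) in the authors' deposited table. In Tet2kd cells 4 of the 15 rose and 1 fell. Lefty1 rose by 1.33 (adjusted p = 3.51e-45), Tcf7l1, a transcriptional repressor of the Wnt pathway, by 0.44 (adjusted p = 2.18e-05) and Spp1 by 0.26 (adjusted p = 0.0151), and Jarid2, a Polycomb cofactor, fell by 0.34 (adjusted p = 0.000614), in the authors' deposited table.

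Of 23 protein partners of OCT4, NANOG and SALL4, 4 rose and 5 fell in Tet1kd cells and none of the 23 passed the first deposited test in Tet2kd cells, where 2 had an unadjusted p under 0.05, the second test called 7 and limma called 1. Among them the zinc finger gene Zfp281 fell by 0.73 (adjusted p = 8.31e-17) and the NuRD subunit gene Rbbp7 by 0.54 (adjusted p = 0.000586), while the NuRD subunit genes Mta1 and Mta3 rose by 0.45 (adjusted p = 1.6e-06) and 0.42 (adjusted p = 8.61e-06), in the authors' deposited table. Of 19 measured paralogs from the POU, SOX, SALL and TRIM-NHL families, 5 rose and 2 fell in Tet1kd cells, and 3 rose and 2 fell in Tet2kd cells. In Tet1kd cells the counts for partners and paralogs, 9 of 23 and 7 of 19, are near the 30.4% of all genes called. That share covers genes with few reads. Among the 9860 genes with an annotated 3′ UTR and a mean of at least 100, 26.5% were higher and 24.3% lower. Sox15 rose by 0.62 (adjusted p = 2.33e-07), Sox21 by 0.58 (adjusted p = 0.0142) and Sall2 by 0.57 (adjusted p = 0.0132) in Tet1kd cells, where Sall3 fell by 0.54 (adjusted p = 0.000222 in the authors' deposited table). In Tet2kd cells Sox21 rose by 1.06 (adjusted p = 2.98e-08), Sall2 by 0.55 (adjusted p = 0.00987) and the TRIM-NHL gene Trim2 by 0.44 (adjusted p = 5.88e-05), and Pou4f2 fell by 0.97 (adjusted p = 3.48e-08), in the authors' deposited table.

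**Figure D5:**
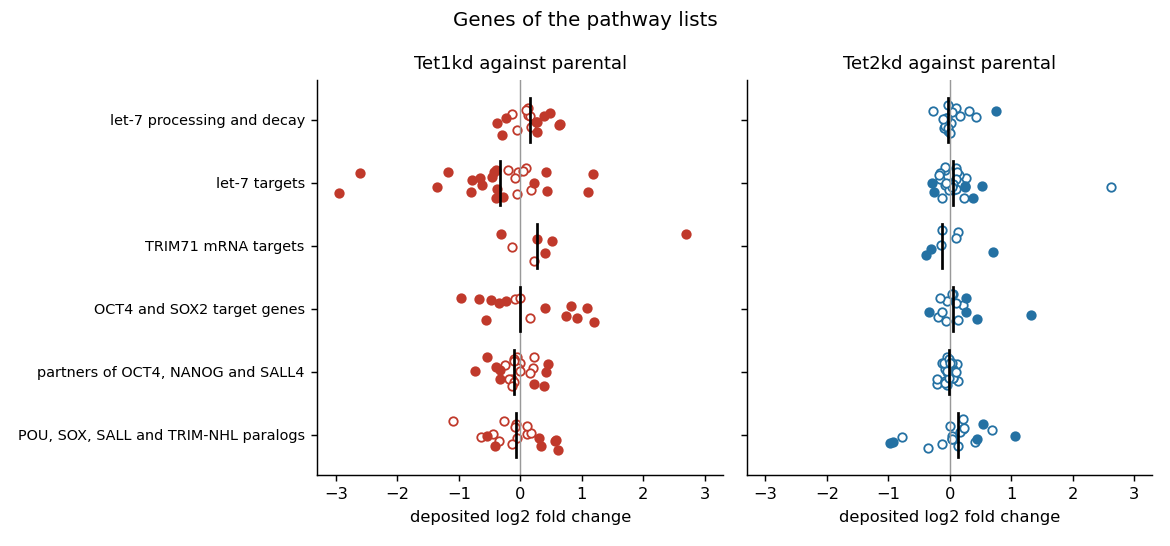
Deposited log2 fold change (x axis) of each gene of 6 lists (rows) in Tet1kd (left, red) and Tet2kd (right, blue) against parental: filled points passed the authors' first test, open points did not, and black bars are list medians. The let-7 targets have a median of -0.33 in Tet1kd and 0.05 in Tet2kd, and Acvr1c, listed at 0 in Tet1kd, is not drawn there.

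Exon use was read from bins, the pieces into which the authors cut the exons of a gene along the chromosome. A bin is called where its share of the gene's reads differs between groups. The 7 genes had 79 bins. In Tet1kd cells 10 of 73 tested bins were called in the authors' deposited exon table, beside 2.56% of 195843 bins in all, and in Tet2kd cells 6 of 74, beside 2.45% of 193091. These shares were not set against bins of like depth. The called bins lay in Nanog, Pou5f1, Lin28b and Sox2, and none in Sall4, Lin28a or Trim71, where the lowest adjusted p of any bin in the authors' deposited table was 0.239, 0.279 and 0.0846 in Tet1kd and 0.0828, 0.112 and 0.0626 in Tet2kd cells.

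In Nanog, bins 5 and 12 were used more in Tet1kd cells (adjusted p = 0.0014 and 0.00951) and bins 9 and 10 less (adjusted p = 0.0467 and 0.0114) in the authors' deposited table. In Tet2kd cells bin 12 was used more (adjusted p = 0.0197) and bin 9 less (adjusted p = 0.00159), and these calls rest on the same parental libraries. Bin 12 held 31.5% of the reads over the bins of the gene. In Pou5f1, bins 10 and 12 were used less (adjusted p = 0.0214 and 1.69e-09) and bin 13 more (adjusted p = 8.18e-05) in Tet2kd cells in the authors' deposited table. The 4 bins called in Pou5f1 in Tet1kd cells, bins 2, 3, 7 and 8, held from 1.76 to 47.4 normalized counts each, under 1% of the gene. All 4 were used less, at an adjusted p of 0.0261, 0.0401, 0.0485 and 0.045 in the authors' deposited table. In Lin28b, whose gene count did not pass the test, bin 5 was used more in Tet1kd cells (adjusted p = 1.58e-06) and bin 1, which holds 89.5% of the reads, less (adjusted p = 0.01) in the authors' deposited table. Bin 8 of Sox2 was used more in Tet2kd cells (adjusted p = 3.69e-05 in the authors' deposited table). The deposited log2 ratios of the bins called in Tet2kd cells were small, from -0.15 to 0.07 as knockdown over parental, on an uncertain scale. Those of the called Nanog bins in Tet1kd cells also ran from -0.15 to 0.07, while bin 5 of Lin28b had 0.54 there.

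Pou5f1 lies on chromosome 17, Sox2 on 3, Nanog on 6, Sall4 on 2, Lin28a on 4, Lin28b on 10 and Trim71 on 9. The surroundings of each were read by gene order in the RefSeq table, over the 10 genes with a mean of at least 100 on each side. The median log2 fold change of these 20 neighbours lay between -0.14 and 0.13 in Tet1kd and between -0.10 and 0.07 in Tet2kd cells for each of the 7. The 20 neighbours of Lin28a had a median of -0.14 and those of Trim71 of 0.12 in Tet1kd cells, where these genes had -0.65 and -0.93. Dppa3, a maternal factor gene and the nearest such gene before Nanog on chromosome 6, fell by 1.43 in Tet1kd cells (adjusted p = 2.19e-18) and rose by 0.99 in Tet2kd cells (adjusted p = 3.31e-19) in the authors' deposited table.

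Genes most like each of the 7 were taken as the nearest of 10138 genes by the distance between their pairs of deposited log2 fold changes, a measure over only 2 comparisons that share the parental libraries. Distances of the 3 nearest genes were 0.0041 to 0.026. Nearest to Trim71 were Chmp3, Ttyh3 and Gm53, nearest to Lin28a Txnip, Ccnd2 and Zrsr1, and nearest to Sall4 Csrp1, Tmem150a and Aldh1l1. Ccnd2, the cyclin gene, is also in the list of let-7 targets. Nearest to Sox2 were Prkdc, Syne4 and the LIF receptor gene Lifr, to Nanog Ctsz, Pfkl and Flii, to Pou5f1 Fam120a, Elovl2 and Tmem208, and to Lin28b Nek1, Gen1 and Afg3l2.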

How the data were processed

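RNA of 12 libraries was sequenced on SOLiD. The submitters' processing notes name TopHat2 2.0.0, SAMtools 0.1.18 and DESeq, and the builds mm9 and NCBIM37. Per the file headers, the deposited gene tables give mean signal per group (normalized counts), a ratio (fold), its log2 value and p-values of 2 tests, the second with unstated terms. The deposited exon tables (DEXSeq, per the file headers) give a signal mean, a log2 ratio, p-values and a dispersion score. That ratio is parental over knockdown and was read with the sign turned. Over 960 bins, parental shares from both tables differed least with it multiplied by 2, so its scale is uncertain and bins are read by direction and call.

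Whole reads per library were recovered from the deposited means, which fix them to 15 digits, and several possible sets were settled by recomputing the first deposited p-value, which came out equal in 21322 of 21322 Tet1kd and 21881 of 21881 Tet2kd genes with 1 set (within a relative 1e-05). Means above 25000 in the knockdown groups were not searched. Reads were divided by median-of-ratios size factors, and limma (version 3.58.1, R version 4.3.3) was fitted to log2(normalized count + 0.5) over the 14926 genes whose mean reached 10, and the fit was tested on simulated data. The deposited test was the main test against parental, at an adjusted p of 0.05, and limma served between the knockdowns. The edgeR test named in the design was not run, as the tables hold no counts. The labels call the 4 samples of a group biological replicates without saying whether they are clones or cultures, so p-values measure the spread between these samples. Deviations from group means correlated at 0.391 to 0.599 between libraries of the same depth class in different groups and at -0.549 to -0.388 across classes.

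Genes were named by all 7 members, by list (up to 4 per comparison past the threshold with means of at least 100, by size), by bin (those past the threshold) and by likeness. Gene names matched 31278 of 36521 identifiers. The members, lists and tests were chosen with earlier results of these data known. Listed genes that were not in the tables (such as Dgcr8, Igf2bp1 and Sox1) are not analysed here. Alternatives were the second deposited test, other adjustments, centring, limma, thresholds and leaving out each library. In the comparisons with parental, centring kept the deposited p-values, so a count could change only where a gene turned its direction.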

Additional observations from a re-analysis of the deposited data

Results flagged for a closer look

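The knockdown groups differed from each other, by the limma test of the difference itself, in 5 of the 7 genes, where 51.2% of 14926 genes differed. The depletions were unequal, with Tet1 at 25.2% of parental in Tet1kd and Tet2 at 50.9% in Tet2kd cells, and no group carried a control hairpin. The log2 difference of Tet1kd minus Tet2kd was 0.25 in Pou5f1, 0.41 in Nanog, -0.54 in Sall4, -0.81 in Lin28a and -1.15 in Trim71. No library of one knockdown lay within the range of the other in these genes, which held for 45.0% of genes with a mean of at least 10. In 21 groups of 4 libraries (7 genes in 3 groups) no library stood apart from the other 3 by Dixon's test. This test flags about 1 in 20 groups by chance where the 4 values are draws of 1 kind. Here the libraries fell into a deeper and a shallower class, so it could hardly flag a library in genes that differ between the classes.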

How the results depend on the processing

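The count of 5 genes called in Tet1kd against parental ranged from 4 (adjusted p of 0.01, which loses Nanog) to 6 under all alternatives run, and stayed at 5 without each of the 8 libraries in turn by limma. The count of 5 between the knockdowns was 5 or 6 throughout, 5 without each of 12 libraries. The Tet2kd count of 1 moved most: 6 by the second deposited test, 2 with the adjustment over genes whose mean reached 10 (Trim71 added, adjusted p = 0.041), 3 by limma, 7 with the depth class term, 4 in the deeper and 6 in the shallower libraries alone (the last 3 chosen after seeing the data), and 1 to 3 when a library was left out by limma, 1 without Tet2kd library a. Of all genes in Tet2kd cells, 7.14% passed the first deposited test, 18.2% the second, 19.9% limma and 36.5% limma with the depth class term. Limma called 2702 of 14970 genes in the deeper and 2426 of 14881 in the shallower libraries alone. No called gene among the 7 reversed its direction. Called exon bins numbered 3 in Tet1kd at an adjusted p of 0.01 (10 at 0.05), and 11 in Tet2kd at 0.1 (6 at 0.05); why was not tested. With 2 libraries per group and depth class, within-class fits rest on few residual degrees of freedom. No paired analysis was possible because the recovered libraries carry letters by depth and nothing ties them to the replicate numbers of the labels.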
